A study of Mus musculus with 12 samples.

Results

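Tmem200b, Mab21l2, Lrba and Rgs20 are 4 of 32093 annotated genes. Each has an annotated transcription start site inside a CpG-dense region that carried less cytosine modification in Tet tcKO retinas than in Cre- controls. They were chosen from the same WGBS contrast described here, by the deposited area statistic of the regions that lost methylation. The 3 regions ranked 1, 2 and 3 among 2672 losses on that statistic hold their start sites. Their WGBS values are therefore a description and were not tested. Every called region that overlaps a gene or the 5 kb on either side of it was taken, which gave 73 of 193836 WGBS regions and 226 of 592906 bACE-seq regions.

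The study profiled genomic DNA of whole retinas at postnatal day 21 (P21), from 3 Cre- and 3 Tet tcKO samples, with both assays. Per the study, retinas were pooled from 2 animals for this DNA. The Tet tcKO retinas lacked Tet1, Tet2 and Tet3, removed as floxed alleles by a Chx10-Cre-GFP transgene that acts in retinal progenitor cells. That transgene can be mosaic, breeders carried 2 copies to reduce this, and whole retina also contains cells outside the progenitor lineage, so a level left in Tet tcKO cannot be told apart from cells that kept the alleles. The study also reported more cones at the expense of rods in Tet tcKO retinas, and shifts in other cell types. A difference in level between the groups therefore cannot be told apart from a change in the mix of cells. The Cre- controls lacked the transgene, were age-matched animals from Cre- breeders, and are labelled WT. The strain of all samples is given as C57 BL/6J. WGBS reads 5mC and 5hmC together, whereas bACE-seq reads 5hmC alone. The deposited lists hold 1 mean level per group and region, each over 3 samples. The level in a single sample or animal, its spread and the read depth behind it are therefore unknown here, and no test between groups was possible.

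CpG dinucleotides are depleted from most of the mammalian genome but are retained in CpG islands, which surround the start sites of many genes and are as a rule little methylated. DNA methyltransferases place 5mC, and the TET enzymes oxidize it to 5hmC and further forms that can be exchanged for plain cytosine, so removal of TET activity is commonly associated with lower 5hmC and higher 5mC. Mab21l2 is a single-exon gene required for eye development, and Lrba encodes a BEACH-domain protein of vesicle traffic. Rgs20 encodes an RZ-family regulator of G protein signaling that accelerates GTP hydrolysis by G alpha z, and a long form of it is known from retina. Tmem200b encodes a transmembrane protein whose function is poorly described.

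The sequences below show how dense in CpG the start sites are. In each, CpG dinucleotides are in capitals and the remaining bases in lower case. Promoters matched the RefSeq table (GRCm38.p6) for Tmem200b, Mab21l2 and Lrba, not for Rgs20, and the 250 bases before each start are printed 5′ to 3′ on the gene's own strand. The Tmem200b promoter, chr4:131921521-131921770 on the plus strand, holds 34 CpGs. No untranslated sequence is annotated at this start, so these bases directly precede the coding sequence. Where transcription starts was not tested, and promoter here means only the bases before the annotated start. The Mab21l2 promoter, chr3:86548284-86548533 on the minus strand, holds 10. It lies before the transcript start used here but inside the annotated gene, which reaches to 86548629. The main Lrba promoter, chr3:86224440-86224689 on the plus strand, holds 19 and is shown because, unlike the other 2, no called region of either assay overlaps it.
Tmem200b promoter: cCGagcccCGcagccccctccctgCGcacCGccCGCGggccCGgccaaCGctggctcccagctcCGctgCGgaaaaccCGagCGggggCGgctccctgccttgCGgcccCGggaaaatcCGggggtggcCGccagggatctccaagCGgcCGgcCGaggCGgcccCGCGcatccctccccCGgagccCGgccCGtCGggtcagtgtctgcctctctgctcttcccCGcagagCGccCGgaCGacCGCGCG
Mab21l2 promoter: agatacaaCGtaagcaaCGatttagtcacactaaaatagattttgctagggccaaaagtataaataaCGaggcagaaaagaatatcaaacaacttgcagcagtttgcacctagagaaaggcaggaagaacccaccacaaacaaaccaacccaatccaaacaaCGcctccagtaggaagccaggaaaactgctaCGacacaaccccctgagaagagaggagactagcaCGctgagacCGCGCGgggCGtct
Lrba main promoter: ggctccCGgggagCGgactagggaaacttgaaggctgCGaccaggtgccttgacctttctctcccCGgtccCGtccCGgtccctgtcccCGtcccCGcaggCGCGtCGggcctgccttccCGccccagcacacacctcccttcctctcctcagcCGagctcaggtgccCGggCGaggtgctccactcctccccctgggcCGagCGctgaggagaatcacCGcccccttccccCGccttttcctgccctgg

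The 150 bases richest in CpG within each of the 3 losses, outside untranslated exons and these promoters, are printed on the plus strand to show the sequence that the WGBS levels below were read from. The Tmem200b stretch, chr4:131920467-131920616, lies before the gene and holds 29 CpGs. The Mab21l2 stretch, chr3:86547273-86547422, lies in its coding exon and in an intron of Lrba, and holds 15. The Rgs20 stretch, chr1:5018244-5018393, is intronic and holds 13.
Tmem200b stretch: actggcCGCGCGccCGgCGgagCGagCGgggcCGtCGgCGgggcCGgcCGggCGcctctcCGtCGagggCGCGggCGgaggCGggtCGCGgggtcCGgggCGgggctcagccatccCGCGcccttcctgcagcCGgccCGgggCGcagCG
Mab21l2 stretch: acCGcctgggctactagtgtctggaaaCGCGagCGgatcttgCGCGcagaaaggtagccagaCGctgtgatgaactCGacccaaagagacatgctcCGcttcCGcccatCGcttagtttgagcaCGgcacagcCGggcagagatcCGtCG
Rgs20 stretch: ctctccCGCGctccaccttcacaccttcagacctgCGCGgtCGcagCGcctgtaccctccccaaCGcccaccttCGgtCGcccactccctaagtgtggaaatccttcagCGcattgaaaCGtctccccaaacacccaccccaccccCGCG

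In the full 300-base windows of the RefSeq table, 250 bases before to 50 after the start, Tmem200b had 43 CpGs, Lrba 27 and Mab21l2 14, against a median of 7 over 32851 windows. The GC box GGGCGG, searched on both strands, occurred 2 times in the Tmem200b window, 2 times in the Lrba window and 0 times in the Mab21l2 window, and 35.7% of all windows hold it. The Mab21l2 window held 1 CCAAT and 1 TATAAA, letters found in 37.4% and 13.6% of windows, and neither other window held them. The E box CACGTG, the cAMP response element TGACGTCA, the OTX and CRX core TAATCC and the NRF1 letters GCGCATGC were in none of the 3 windows. No searched motif contains another, and a match or its absence describes only these letters.

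Total modification was lower in Tet tcKO over all 3 start-site losses, with differences of -9.97 to -13.9 points from a control level near 25%. At Tmem200b (ENSMUSG00000070720.3, chr4:131921771-131923140, plus strand), the loss spanned chr4:131920360-131922250 (mm10), 1891 bp with 248 CpGs, over the start site and the beginning of the coding exon. WGBS there averaged 25.2% in Cre- against 15.2% in Tet tcKO, which differ by -9.97 points. At the shared Mab21l2 and Lrba site, chr3:86546353-86548524, 2172 bp with 118 CpGs had 25.2% in Cre- and 11.4% in Tet tcKO, a difference of -13.9 points. At Rgs20 (ENSMUSG00000002459.17, chr1:4909576-5070285, minus strand), chr1:5018052-5020417, 2366 bp with 134 CpGs had 24.3% in Cre- and 10.9% in Tet tcKO, a difference of -13.4 points. Weighted by CpGs, the 3 losses together went from 24.9% to 13.2%, a mean difference of -11.8 points.

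The 3 regions had nearly equal control levels but unlike sequence. Tmem200b had 13.1 CpGs per 100 bp, 75.8% GC and an observed to expected CpG ratio of 0.915, where the ratio compares the CpGs present with those its C and G content would give. Mab21l2 had 5.43 CpGs per 100 bp, 53.5% GC and a ratio of 0.759, and Rgs20 had 5.66 CpGs per 100 bp, 60.8% GC and a ratio of 0.619. All 3 regions passed the rule for CpG-dense sequence, a ratio of at least 0.6 and at least 50% GC. The 300-base windows at the single starts did not all pass it. GC was 79.0% at Tmem200b and 61.3% and 64.3% at the Rgs20 starts inside the loss, but 49.7% at Mab21l2 and 46.7% at the Lrba start inside the loss, so these last windows fell short of the GC limit and CpG-dense describes the region there, not the window. The main Lrba start, at 72.7% GC and a ratio of 0.750, passed and had no called loss. Tet tcKO kept 60.4% of the Cre- WGBS level at Tmem200b, 45.1% at Mab21l2 and 45.0% at Rgs20, so the region with the most CpGs kept the largest share.

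**Figure D1:**
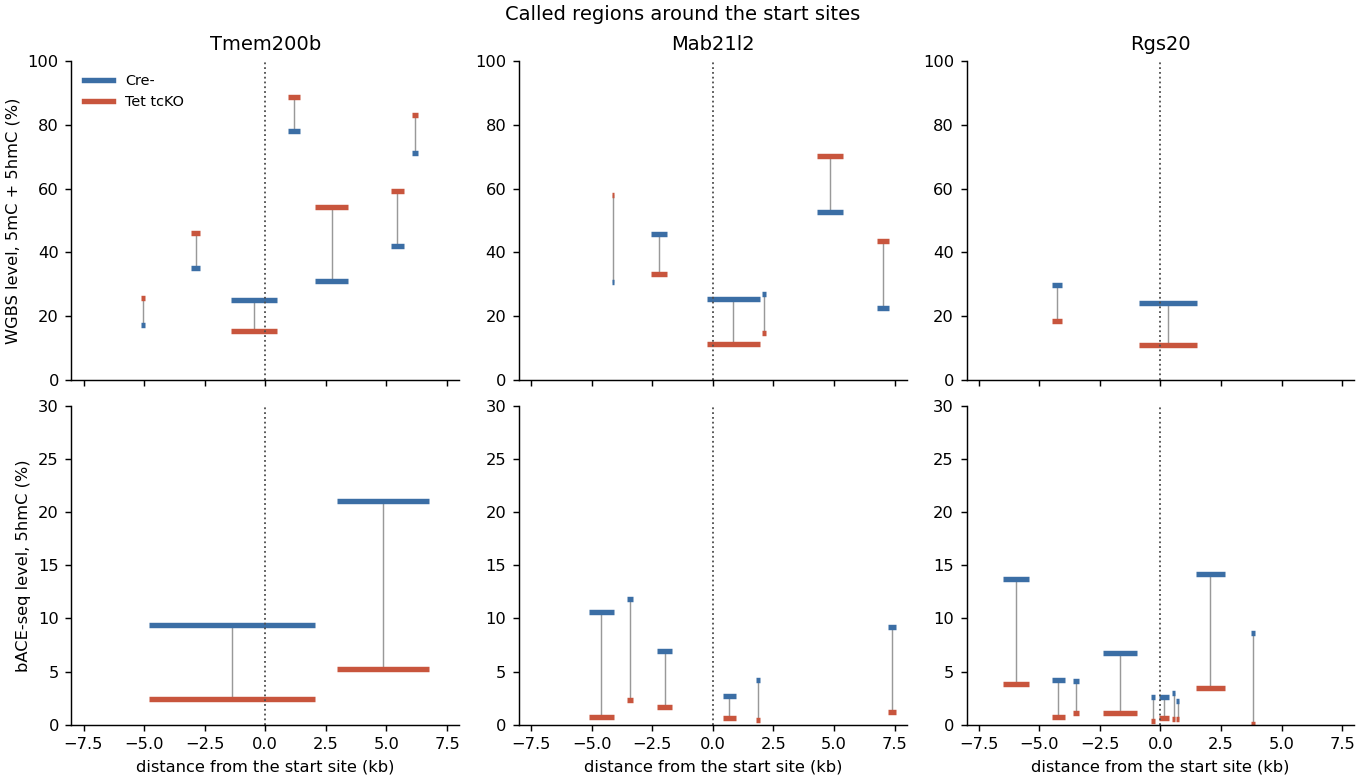
Called regions of the Tmem200b, Mab21l2 and Rgs20 loci within 8 kb of a start site (dotted line, distance in kb along the gene, the start 5019539 for Rgs20), as WGBS level (5mC + 5hmC, top) and bACE-seq level (5hmC, bottom) in percent. Each bar is the authors' group mean over the length of a region, blue for Cre- and red for Tet tcKO, and the region over each start is near 25% in Cre- and at 10.9% to 15.2% in Tet tcKO in WGBS, while every 5hmC level is lower in Tet tcKO.

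Lower WGBS levels were rare in the list as a whole: losses made up 1.38% of WGBS regions, and 4.35% of genes held such a region within the gene and its 5 kb flanks. Within 2 kb of a start site the share of genes with a loss was 1.43%. All 4 members meet these by the way they were chosen, so nothing is read from their count. Of the 2672 losses, 94 hold an annotated start site and 74 of these were CpG-dense. The 94 had a median WGBS level of 26.7% in Cre- and 18.8% in Tet tcKO, a median difference of -7.90 points, 24.5 CpGs and 401 bp. By contrast, the 2578 losses without a start site had a median of 89.2% in Cre- and 73.1% in Tet tcKO. The 94 pool autosomal with many X-linked start sites, among them Fmr1, Xiap and Pgrmc1, whereas the members are autosomal. Medians and percentiles over the 94 were not split by chromosome, and sex was not considered here.

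Within the 94 start-site losses, X-linked ones included, the control level of the 3 regions was unremarkable. It lay at the 41.5, 42.6 and 40.4 percentiles for Tmem200b, Mab21l2 and Rgs20. Their CpG counts were at the 100.0, 96.8 and 97.9 percentiles, a measure that the area statistic sums over and so part of the choice. The share of the control level that remained in WGBS was at the 31.9 percentile for Tmem200b, 9.57 for Mab21l2 and 8.51 for Rgs20, where a low percentile means a larger relative loss. CpG density set Tmem200b apart from the other regions, at the 86.2 percentile against 22.3 and 29.8. GC content gave the same order, at the 90.4, 10.6 and 33.0 percentiles for Tmem200b, Mab21l2 and Rgs20.

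Just outside the 3 regions on the area statistic came start-site losses at AC102496.1, M5C1000I18Rik and 4930447C04Rik. AC102496.1 had 89 CpGs and went from 72.1% to 39.6%. M5C1000I18Rik had 152 CpGs and went from 10.4% to 5.4%, with no 5hmC region over it. The 4930447C04Rik loss held 90 CpGs and went from 34.0% to 12.5%, but was CpG-poor. None of these had the members' control level near 25%.

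The start-site losses most like the members were ranked by their distance from the members' mean levels, 24.9% in Cre- and 12.5% in Tet tcKO, among the 18 other start-site losses with at least 50 CpGs. Col26a1, which encodes a collagen, was nearest, at 1.93 points, with 107 CpGs and a change from 23.0% to 12.2%. A730035I17Rik followed at 2.5 points, with 101 CpGs and levels of 22.4% and 12.5%. Alg13, an X-linked gene of protein glycosylation, lay 2.91 points away, with 51 CpGs and levels of 25.6% and 15.3%. Gm11772 was 5.12 points away (20.8% and 9.43%), and Hccs, an X-linked holocytochrome c synthase gene, was 8.29 points away (26.2% and 20.7%). No replicate spread is known for these levels, so the order among neighbours such as Col26a1 and A730035I17Rik cannot be told apart.

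**Figure D2:**
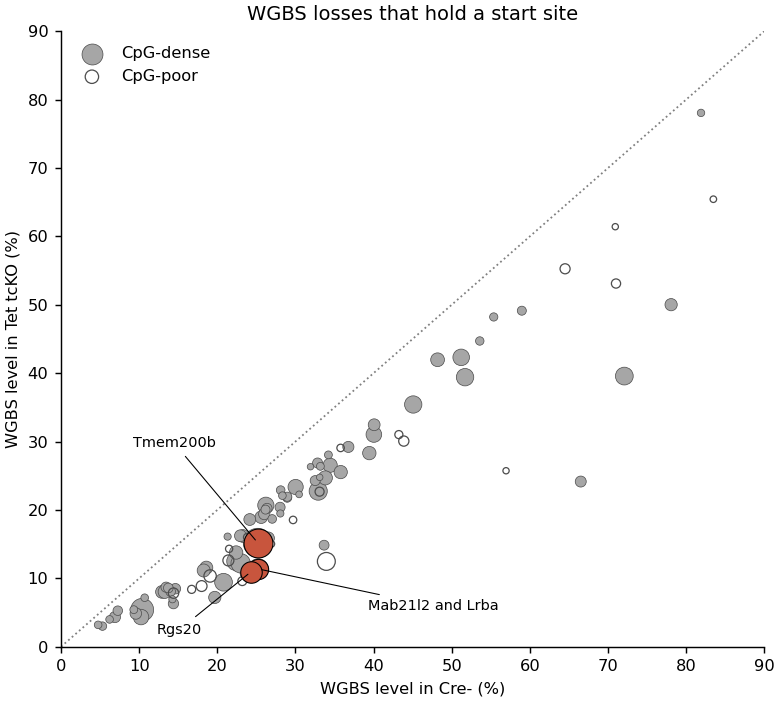
WGBS level in Cre- (x, percent) against Tet tcKO (y, percent) for the 94 losses that hold a start site, with the area of a point growing with its number of CpGs. Filled points are CpG-dense, open points CpG-poor and the dotted line marks equal levels, and the 3 red points of Tmem200b, Mab21l2 with Lrba, and Rgs20 sit between 24.3% and 25.2% in Cre-.

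Loss of 5hmC was measured over the same 3 sites by separate bACE-seq libraries made from the same DNA, and was called at each. Of all 94 start-site losses 44.7% overlapped a 5hmC region, as did 39.2% of the 74 CpG-dense ones. Both shares include X-linked losses, most of which had no 5hmC region (such as Fmr1 and Pgrmc1, unlike Xiap and Xist). The share among autosomal losses, like those of the members, was not computed. One 5hmC region of 6872 bp and 367 CpGs, chr4:131916970-131923841, covered the whole Tmem200b loss and went from 9.35% in Cre- to 2.46% in Tet tcKO. At Mab21l2, 2 short regions overlapped the loss, and their CpG-weighted level went from 2.92% to 0.636%. At Rgs20, 5 regions overlapped, and the level went from 4.34% to 0.996%. The share of control 5hmC that remained was 26.3% at Tmem200b, 21.8% at Mab21l2 and 23.0% at Rgs20. These shares lay close to the median of 22.2% over the 42 start-site losses with a 5hmC region.

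The level of 5hmC differed more among the sites than its relative loss. As a share of the WGBS level in Cre-, 5hmC amounted to 37.1% at Tmem200b, 11.6% at Mab21l2 and 17.9% at Rgs20, against a median of 18.7% over those 42 losses. In Tet tcKO the same shares were 16.2%, 5.59% and 9.11%. Subtracting the 5hmC level from the WGBS level left 15.8 points in Cre- and 12.7 in Tet tcKO at Tmem200b, a difference of -3.08 points. The remainder went from 22.3 to 10.7 points at Mab21l2 (-11.6) and from 19.9 to 9.93 at Rgs20 (-10.0). The 5hmC difference at Tmem200b (-6.89 points) was thus larger than the change of the remainder, whereas at Mab21l2 (-2.29) and Rgs20 (-3.34) it was smaller.

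That subtraction rests on regions of unequal extent, and the 5hmC level over exactly the CpGs of each loss is not known. The contrast between Tmem200b and the other sites could therefore differ over the same CpGs. The Tmem200b 5hmC region has 27.5% of its length inside the loss, but 248 of its 367 CpGs. At Rgs20, chr1:5016883-5018080 reaches only 29 bp into the loss and carries 14.2% 5hmC in Cre-, whereas the 4 regions wholly inside lie between 2.25% and 2.97%. Weighted by CpGs, these 4 averaged 2.55% in Cre- against 0.543% in Tet tcKO, so 21.3% remained. At Mab21l2 the larger region, chr3:86547349-86547858 over the coding exon, had 37 CpGs and went from 2.75% to 0.665%. It covers 23.5% of the loss, and the start site itself lies 425 bp from it. The study estimated incomplete conversion in bACE-seq from a spiked-in vector, and that estimate was not applied to these levels. Low 5hmC levels, those in Cre- at Mab21l2 and Rgs20 as well as those in Tet tcKO, can include unconverted cytosine. Its part was not tested beyond an assumed subtraction of 0.5 points. The study's own estimate is larger than this subtraction and near the lowest Cre- levels at Mab21l2 and Rgs20.

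**Figure D3:**
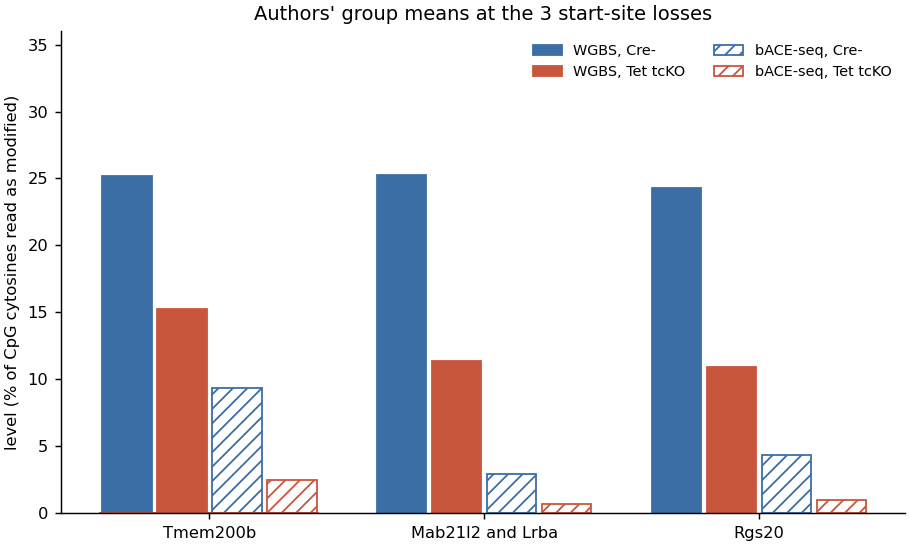
Authors' group means in percent at the 3 start-site losses, solid bars for WGBS and hatched bars for the overlapping bACE-seq regions weighted by CpGs, blue for Cre- and red for Tet tcKO. WGBS levels in Cre- are within 1 point of each other, while 5hmC in Cre- ranges from 2.92% at Mab21l2 to 9.35% at Tmem200b. No error bars can be drawn from group means.

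Mab21l2 (ENSMUSG00000057777.4, chr3:86545581-86548629, minus strand) lies inside Lrba (ENSMUSG00000028080.16, chr3:86224680-86782692, plus strand) on the opposite strand. The loss contains the Mab21l2 start at position 86548283 and the start of a short Lrba transcript, Lrba-206, at 86548216, 67 bp away. The main Lrba start lies 321673 bp from the edge of the loss. Lrba is thus a member through that internal start, and the loss covers the Mab21l2 coding exon in an intron of the long Lrba transcripts. A pair of further losses flanked it. One of 164 bp and 4 CpGs, 79 bp away in the Mab21l2 3′ UTR, had 27.0% in Cre- and 14.8% in Tet tcKO. The other, chr3:86550161-86550848 with 25 CpGs, lay 1636 bp beyond the loss on the upstream side of Mab21l2 and had 45.7% and 33.1%. All 3 WGBS losses of Lrba were these.

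The main Lrba start site was different. Its 300-base window by GENCODE holds 28 CpGs, yet the nearest WGBS region was a gain of 4 CpGs 1670 bp downstream, chr3:86226350-86226615, at 83.0% in Cre- and 95.2% in Tet tcKO. The nearest 5hmC loss, 1402 bp upstream, had 21.8% and 4.44%. A window with no region was not called by the authors, which does not show that its level was the same in both groups.

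Rgs20 has 3 annotated starts, and the loss contains those at 5018735 and 5019539. Their 300-base windows hold 20 and 22 CpGs. The distal start, at 5070285, lies 49868 bp from the loss and has 2 CpGs in its window. There, a WGBS gain of 1454 bp and 5 CpGs, chr1:5068571-5070024, went from 16.2% in Cre- to 61.7% in Tet tcKO, a difference of 45.6 points, and its edge was 261 bp from the start. The gain includes a start of Atp6v1h, which encodes a subunit of the vacuolar proton pump, at 5070018. The same gene therefore held a loss at its CpG-dense starts and the largest gain of the 67 in the 4 loci at its CpG-poor start. A second Rgs20 loss, chr1:5023614-5024024 with 18 CpGs in an intron, had 29.8% and 18.6%, and the 5hmC region over it had 4.19% and 0.728%.

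Tmem200b is short, 1370 bp with 1 start, and its loss ended within its only exon. A gain of 13 CpGs over its 3′ UTR, chr4:131922719-131923207, went from 78.2% to 88.7%, so the start of the gene carried a loss and its end a gain. Of its 6 gains, 2 lay upstream and 4 at or beyond the 3′ UTR, with differences of 8.42 to 23.4 points. The start of the noncoding gene Gm12992, at 131920029 on the minus strand, lies 331 bp from the loss. The 5hmC region over Tmem200b ranked 20 in the bACE-seq list on the area statistic, and a second 5hmC loss beyond the gene, chr4:131924715-131928544 with 58 CpGs, had 21.0% in Cre- and 5.20% in Tet tcKO.

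WGBS gains outnumbered losses in the 4 loci together, with 67 gains and 6 losses. Lrba held 59 of the gains, Tmem200b 6, Mab21l2 3 (all inside Lrba) and Rgs20 2. A gain is common: 76.2% of all genes held one within the gene and 5 kb, as did all 4 members. Within 2 kb of a start site, 49.5% of all genes had a gain, and 3 of the 4 members did, all but Mab21l2. The gains went from 55.5% in Cre- to 73.7% in Tet tcKO, weighted by CpGs, a difference of 18.2 points, against 17.4 over all WGBS gains. Single gains ranged from 6.65 to 45.6 points.

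All 226 bACE-seq regions in the loci were lower in Tet tcKO, as were 592697 of 592906 in the whole list (100% to 3 digits). A 5hmC loss lay in or near 88.8% of all genes and within 2 kb of a start site in 79.4%, and the 4 members all had both. The CpG-weighted 5hmC level of the loci was 15.5% in Cre- and 3.44% in Tet tcKO, so 22.3% remained, against 24.0% over all 5hmC losses. In the 12 regions with a midpoint within 2 kb of a member's start it was 8.11% and 2.03%. In the 203 gene-body regions it was 17.7% and 3.79%. One Tmem200b region, which reaches beyond 2 kb, holds 367 of the 544 CpGs of the 12 regions. The median control level of the 12 was 5.05%. The lowest control level, 2.25%, was in the Rgs20 loss, and the highest, 45.2%, was in an Lrba intron (chr3:86256037-86256785, 4 CpGs), where Tet tcKO had 10.6%.

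Overlap between the assays was counted for each direction. Of the 6 losses in the loci, 5 overlapped a 5hmC loss, whereas 29.6% of all WGBS losses did. The exception was the 4-CpG loss in the Mab21l2 3′ UTR. Of the 67 gains, 47 overlapped a 5hmC loss, against 81.1% of all WGBS gains. The 3 start-site losses are longer, at 1891 to 2366 bp, than the median start-site loss of 401 bp, and the part of length in this count was not tested.

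**Figure D4:**
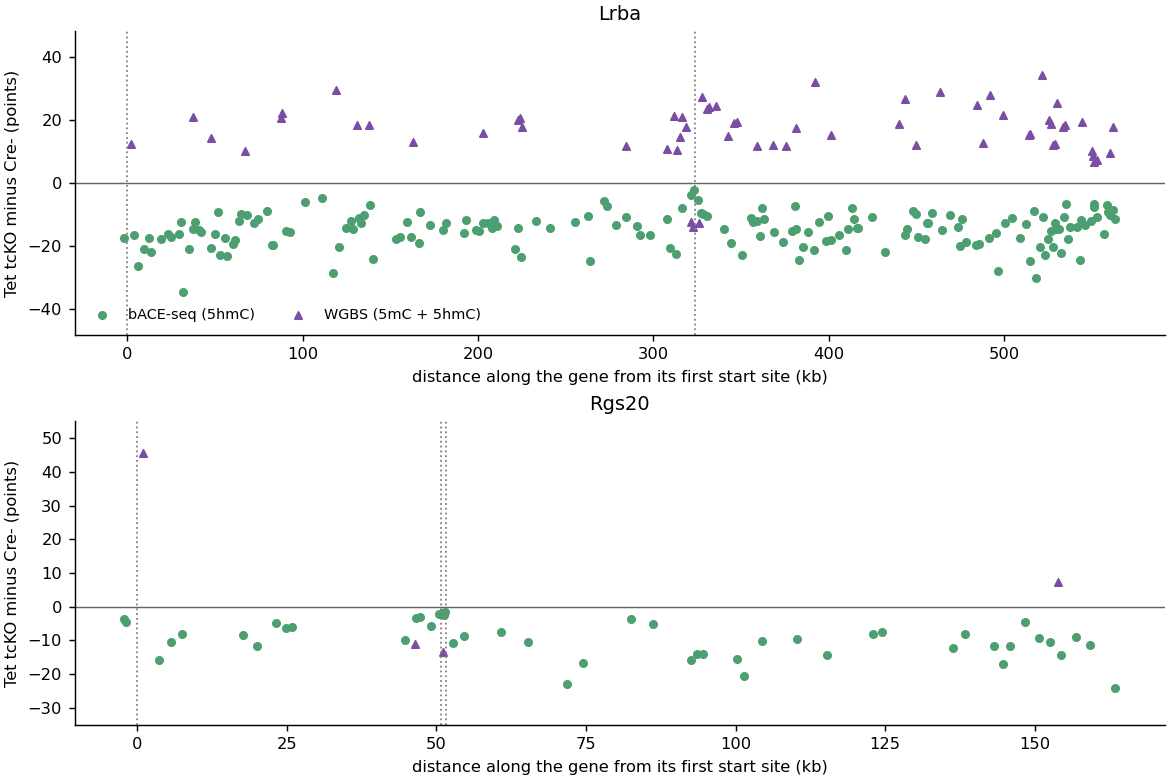
Tet tcKO minus Cre- in percentage points for each WGBS region (triangles) and bACE-seq region (circles) along Lrba and Rgs20, by distance in kb from the gene's first start site, with dotted lines at the annotated starts. In Lrba the only negative triangles sit at the internal start shared with Mab21l2, and in Rgs20 the gain of 45.6 points sits at the distal start and the -13.4-point loss at the inner pair of starts.

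Along Lrba, which spans 558013 bp, the number of gains varied more between 4 equal segments than their mean difference in WGBS. From the main start on, the gains of these segments numbered 9, 5, 20 and 23, with CpG-weighted differences of 19.1, 18.2, 17.2 and 20.3 points. The 5hmC losses numbered 45, 30, 43 and 52, and their control levels were 19.9%, 19.0%, 16.1% and 19.1%. The gain with the largest difference in Lrba, chr3:86745450-86746856 with 18 CpGs over a coding and untranslated exon, went from 36.01% to 70.2%. Against 240 genes of at least 500 kb, Lrba ranked 96 by gains (59, median 46.5) and 113 by 5hmC losses (176, median 170.5). Its rank of 9 by WGBS losses (3, median 0) only describes the choice. Lrba was chosen for such a loss, and its 3 losses all lie at or beside the Mab21l2 site.

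The share of a locus's CpGs inside called regions varied by direction and assay. In Tmem200b with its flanks, 58.4% of 425 CpGs lay in the WGBS loss, 11.8% in gains and 98.4% in 5hmC losses. In Mab21l2, 68.1% of 216 CpGs lay in losses, 12.0% in gains and 37.0% in 5hmC losses. In Rgs20 11.7% of 1303 CpGs lay in losses, 1.23% in gains and 34.9% in 5hmC losses. In Lrba 3.81% of 3856 lay in losses, 12.6% in gains and 40.5% in 5hmC losses. The shares in WGBS losses, which served to choose the members, were higher in the short genes Tmem200b and Mab21l2, but those in gains and in 5hmC losses did not separate short from long genes.

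CpG density went with both readouts in the loci, where dense WGBS losses are present by the choice of the members. Across the 226 5hmC losses, Spearman's rho between density and the control 5hmC level was -0.51, and across all 592697 it was -0.48. Regions share libraries and neighbouring CpGs and are no replicates, so no p is given. The 13 regions with at least 5 CpGs per 100 bp had a median control level of 5.86%, against 18.7% in the 156 with under 2. Their median remaining shares were 24.2% and 20.5%. For the difference in WGBS, rho was -0.66 over the 73 regions and -0.52 over all 193836. Because the members were chosen for dense losses, the -0.66 and the densities of losses and gains in the loci only describe the choice. The 6 losses had a median of 4.91 CpGs per 100 bp and the 67 gains a median of 1.67, with exceptions such as the Mab21l2 upstream gain of 5 CpGs in 92 bp, which went from 30.7% to 57.9%.

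**Figure D5:**
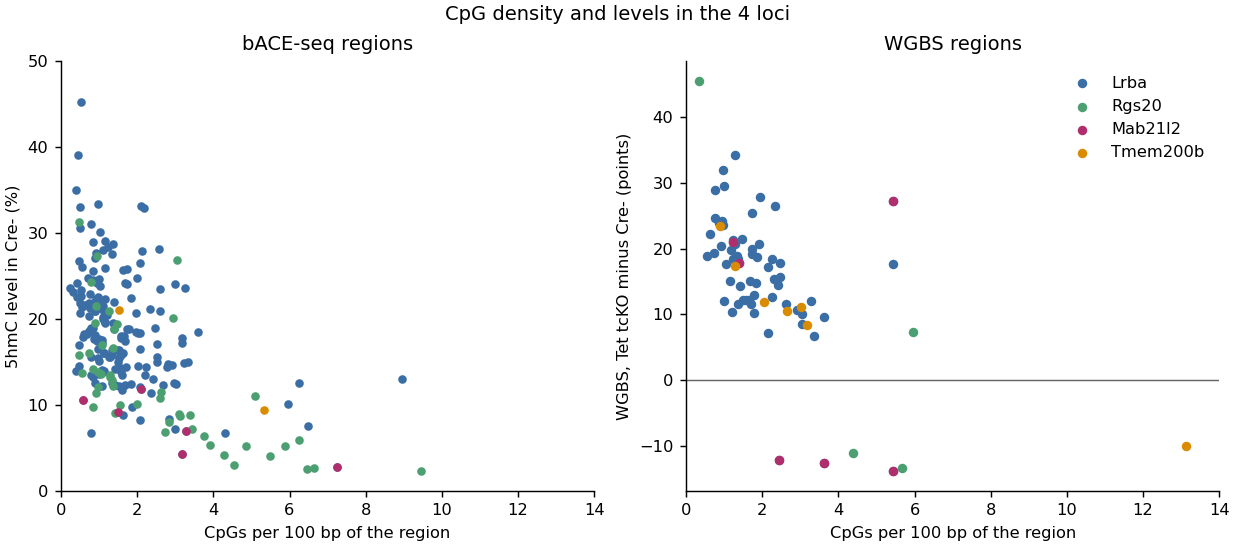
CpGs per 100 bp of each called region in the 4 loci against its 5hmC level in Cre- in percent (left, bACE-seq) and its WGBS difference, Tet tcKO minus Cre-, in points (right), coloured by locus, with Mab21l2 regions drawn over the Lrba regions that contain them. Regions of at least 5 CpGs per 100 bp have a median of 5.86% 5hmC. The densest WGBS region, Tmem200b at 13.1, is the loss by which that member was chosen.

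The members' relatives, 29 genes of the same protein families and the G alpha z gene Gnaz, were read within 2 kb of their start sites. The 2 other TMEM200 genes had 0 losses, as did the 8 other BEACH genes, the 2 RZ, 4 R7 and 10 R4 genes of the RGS family, and Gnaz. Mab21l4 was listed too, but no start site was found under that name in the annotation. One of the 2 other MAB21 genes that were read had a loss. With 1.43% of all genes having one, a count of 0 in groups of this size is no result about a family. Gains were found at 25 of the 29, against 49.5% of all genes, and 5hmC losses at 27, against 79.4%. These sets are unlike, since all genes include noncoding ones and the relatives were read at 1 start site (as at Nbea) to 7 (as at Rgs6). Whether the relatives differ from like genes was not tested. Mab21l1, which like Mab21l2 acts in eye development, had the loss, chr3:55783508-55784168 with 30 CpGs, 998 bp into the gene, at 9.51% in Cre- and 4.88% in Tet tcKO. The overlapping 5hmC loss went from 2.21% to 0.273%, and a gain 421 bp before its start went from 17.6% to 34.3%. Mab21l1 lies inside Nbea on the opposite strand, as Mab21l2 lies inside Lrba, and Nbea is the relative of Lrba in the BEACH family.

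Among the RGS relatives of Rgs20, gains were present at 1 of the 2 other RZ genes, Rgs17, at 4 of 4 R7 genes, a group that includes the photoreceptor GTPase accelerator Rgs9, and at 8 of 10 R4 genes. Both other RZ genes, Rgs17 and Rgs19, had 5hmC losses. At Gnaz, the G protein that RZ regulators act on, a 5hmC region of 423 CpGs over a start site went from 26.2% to 6.85%, and a gain of 40 CpGs over a start went from 69.2% to 78.6%. RNA was not analysed here, so whether any of these levels went with expression was not tested.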

How the data were processed

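WGBS and bACE-seq libraries of the same P21 retinal DNA (3 Cre- and 3 Tet tcKO samples per assay, grouped by the labels) were processed by the authors. Per the study's methods and the submitters' processing notes, reads were trimmed with Trim Galore (0.4.4), aligned to mm10 with Bismark (0.18.2), filtered with SAMtools (1.15.1), freed of duplicates with Picard, and read out per CpG with MethylDackel (0.6.1). The authors called differentially methylated regions with DSS, which smooths levels along the genome, so both the edges and the levels of a region draw on neighbouring CpGs.

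The authors deposited 1 list per assay. The level of each group was deposited by the authors as a fraction of modified reads, averaged over the CpGs of a region and the samples of a group, and was converted here to percent. The area statistic, a score deposited by the authors, adds up DSS test statistics over the CpGs of a region. It served to rank regions and in an alternative for direction, and is not printed, like the deposited difference of the group means. The deposited length and number of CpGs were used as given. Cre- was taken as the first group, after the names of the lists. Direction is Tet tcKO minus Cre- in percentage points.

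A member's locus was its GENCODE M21 gene (basic set, protein-coding and long noncoding, 32093 genes and 57083 transcripts) with 5 kb on each side, and any overlap of 1 bp counted. Start sites were read with 2 kb on each side. Means were weighted by CpGs. The sequences are GRCm38. Overlap counts and means were tested on simulated regions. Python 3.11.15, numpy 2.4.6 and pandas 2.3.3 were used. The members and the gene lists were chosen with earlier results of these data known. Named regions were the members' start-site losses, the 3 next by area statistic, the 5 nearest in level, the largest and smallest gain or 5hmC loss of a locus, and those at annotated starts, with other regions named after their values were seen. The alternatives were other flanks and windows, midpoint overlap, minimum differences and CpG numbers, other weights, and 0.5 points subtracted from 5hmC levels as an assumed background.

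Because the lists hold group means, depth and replicate spread are unknown, and no test, interval or detection floor could be computed from them. The study's spike-in estimate of bACE-seq conversion was not used here.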

Additional observations from a re-analysis of the deposited data

How the results depend on the processing

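Of 33 alternative values of 8 results, 28 stayed within 1.5 times the reported value, 5 moved further and 0 changed sign. With no replicate spread or depth, that range was the only yardstick. Requiring at least 10 CpGs left 19 of the 67 WGBS gains and 70 of the 226 5hmC losses in the loci, and 294 of the 460 genes with a WGBS loss at a start site. Requiring a difference of at least 0.1 left 146 of those genes. Counting CpG-dense losses within 2 kb of a start site rather than over it gave 302 in place of 74. The cause was not tested, beyond the fewer or more regions each rule admits. A flank of 10 kb added 1 loss, at Tmem200b (chr4:131915374-131915487, 7 CpGs, 13.8% and 9.11%).

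The mean difference of the 3 start-site losses, -11.8 points, was -11.2 without Lrba and Mab21l2, -11.2 without Rgs20 and -13.6 without Tmem200b, and -12.5 weighted by length. The share of 5hmC that remained at them, 25.9%, was 21.0% with 0.5 points subtracted. Over regions with at least 50% of their length inside the losses, which leaves out Tmem200b, it was 21.5%.

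No paired analysis was possible because the deposited columns are group means that carry no replicate numbers. Absence from a list shows no equality of levels, and low 5hmC levels in either group can include unconverted cytosine.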
